A study of Rattus norvegicus with 4 samples.

Results

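Border macrophages and antigen presentation were examined in the frontal cortex of newborn rats through 10 genes, Mrc1, Cd163, Lyve1, Pf4, Cd74, RT1-Da, RT1-Ba, Stab1, F13a1 and Lyz2, each looked for by its exact symbol among the 17419 transcript rows of the study. Of the 10 genes, 9 had a row in the male libraries and 7 in the female libraries. RT1-Da and RT1-Ba were not listed in females, and the level of Stab1, a scavenger receptor, was not analysed here. Lyve1, Mrc1 and F13a1 were lower with bisphenol A (BPA) than in controls in both sexes, Lyve1 most evenly, at 1.73 FPKM against 4.62 in males and 2.03 against 5.48 in females. Cd163 was lower in the BPA female and not in the BPA male. The 3 class II genes rested on 0 to 5 fragments a library, too few to show a difference.

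The study compared Wistar pups (Wistar Furth in its methods) whose dams received 5000 µg/kg BPA or vehicle, ethanol in corn oil, by gavage each day from gestational day 1 to birth. The labels give frontal cortex at postnatal day 1, and the methods give prefrontal cortex with the meninges taken off at dissection. Each sex and treatment gave 1 library, and each library is called by its treatment and sex. The methods describe 3 pups for each sex and treatment from 6 litters in all, and no source used here states whether they were pooled in a library. With so few litters, the pups of both sexes of a treatment likely came from shared litters, though the methods do not say which litter gave which pup.

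Macrophages of the brain borders live in the meninges, around vessels and in the choroid plexus. They share a lineage with microglia, the macrophages of the parenchyma, but carry scavenger and endocytic receptors such as the mannose receptor Mrc1, the haemoglobin scavenger Cd163 and the hyaluronan receptor Lyve1, which microglia carry little of. Some border macrophages also present antigen: the class II alpha chains RT1-Da and RT1-Ba pair with beta chains, and the invariant chain Cd74 holds the groove until the peptide is loaded. In newborn rodents these class II molecules are scarce in the brain.

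Promoter sequences are given for the 3 border macrophage genes that were lower with BPA in both sexes by more than counting error, and for the 2 class II alpha chains, because their family has a well known promoter code. Each is the 250 bases before the gene's start in RefSeq (build GRCr8, not the build the reads were mapped to), 5′ to 3′ on the gene's own strand. In Mrc1, Lyve1 and F13a1, capitals mark GAGGAA on either strand, a core of sites for PU.1, a transcription factor of macrophages; in the class II genes they mark ATTGG, the inverted CCAAT of the Y box, AGCAACAG of the X box and TGACGTCA of the X2 box. All were searched on both strands, and they do not overlap here.
Mrc1, chr17:82157475-82157724, plus strand: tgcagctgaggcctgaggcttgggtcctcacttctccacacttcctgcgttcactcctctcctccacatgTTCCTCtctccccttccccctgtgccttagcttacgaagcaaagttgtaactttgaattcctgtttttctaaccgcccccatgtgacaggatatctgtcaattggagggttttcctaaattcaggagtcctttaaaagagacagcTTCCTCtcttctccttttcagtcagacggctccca
Lyve1, chr1:174410978-174411227, minus strand: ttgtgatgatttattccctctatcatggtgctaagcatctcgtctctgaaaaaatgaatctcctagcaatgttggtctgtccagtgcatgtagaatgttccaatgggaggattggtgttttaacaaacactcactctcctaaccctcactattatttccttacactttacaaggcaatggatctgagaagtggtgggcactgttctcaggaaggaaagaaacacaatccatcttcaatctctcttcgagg
F13a1, chr17:28020947-28021196, plus strand: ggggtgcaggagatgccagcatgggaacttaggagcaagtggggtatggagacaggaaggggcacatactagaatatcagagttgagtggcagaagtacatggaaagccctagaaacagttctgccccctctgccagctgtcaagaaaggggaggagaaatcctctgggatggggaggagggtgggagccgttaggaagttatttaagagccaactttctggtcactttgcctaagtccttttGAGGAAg
RT1-Da, chr20:4515165-4515414, plus strand: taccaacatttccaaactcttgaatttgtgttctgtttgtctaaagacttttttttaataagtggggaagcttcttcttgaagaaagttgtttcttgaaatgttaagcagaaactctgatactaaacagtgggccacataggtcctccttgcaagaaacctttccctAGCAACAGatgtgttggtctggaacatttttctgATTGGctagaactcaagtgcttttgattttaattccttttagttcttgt
RT1-Ba, chr20:4576807-4577056, plus strand: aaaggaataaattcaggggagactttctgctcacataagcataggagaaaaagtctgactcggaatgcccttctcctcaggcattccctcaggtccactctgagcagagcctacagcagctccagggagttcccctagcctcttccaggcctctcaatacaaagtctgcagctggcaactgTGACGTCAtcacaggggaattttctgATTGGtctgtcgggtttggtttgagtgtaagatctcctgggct

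The PU.1 core stood 180 to 175 and 35 to 30 bases before the start of Mrc1, on the other strand, and 7 to 2 bases before the start of F13a1. It was not in the Lyve1 window. It was in 5 of the 9 members with a promoter entry and in 23.3% of all 33469 promoters searched. ATTGG, which is short and common, was in 6 of 9 members and in 34.0% of promoters, and lay 49 to 45 bases before the start of RT1-Da and 43 to 39 before that of RT1-Ba. Upstream of it, RT1-Da held AGCAACAG at 83 to 76 bases, a run found in 1.65% of promoters, and RT1-Ba held TGACGTCA at 69 to 62 bases, found in 1.59%. These are matches of letters and were not tested as sites. Pf4 had no entry.

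Levels are FPKM, fragments scaled to the length of the transcript and the depth of the library, which allow genes to be compared per length. The number of fragments behind each value was recovered from the steps between low FPKM values, for libraries of 8944500 to 9250500 fragments. In controls the order of levels was Lyve1 (4.62 to 5.48 FPKM), Mrc1 (2.99 to 4.15), Lyz2 (2.57 to 3.53), Pf4 (2.15 to 2.5), F13a1 (1.38 to 1.43), Cd163 (0.68 to 1.21), RT1-Ba (0.5, male only), Cd74 (0.19 to 0.39) and RT1-Da (0.09, male only). The ranges of Mrc1 and Lyz2 overlapped, and those of the other neighbours with both sexes did not, though each range is 1 male and 1 female library. The Pf4 values in controls stood on 6 and 5 fragments, so its place between Lyz2 and F13a1 is within counting error. The class II genes stood on 5 fragments or fewer, so their order is not settled. The neuronal genes of the same tissue were at a far higher level, Tubb3 between 1552.23 and 1886.54 FPKM.

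**Figure D1:**
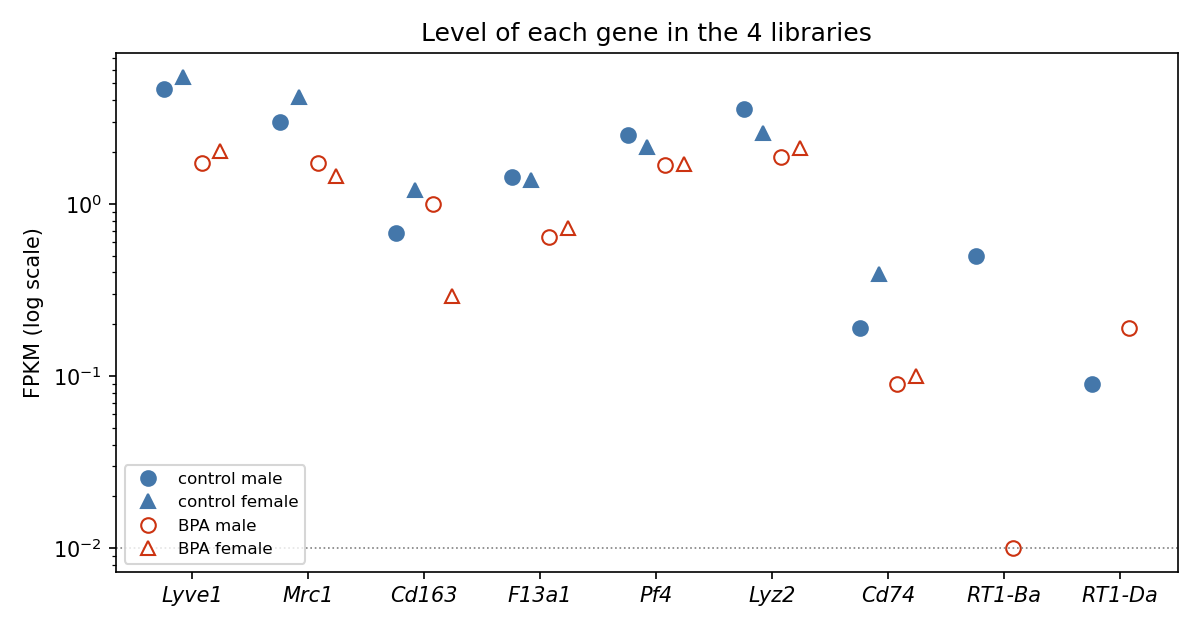
Expression level (FPKM, log axis) of each listed member in the 4 libraries, 1 point a library. For Lyve1, Mrc1, F13a1 and Lyz2 both BPA points sit below both control points, for Cd163 they do not, and the class II genes sit at 0.5 FPKM or below.

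Among the endocytic receptors, Lyve1 (NCBI Gene 293186), which binds hyaluronan and marks vessel-associated macrophages and lymphatic endothelium, was at 4.62 FPKM in the control male and 5.48 in the control female, and at 1.73 in the BPA male and 2.03 in the BPA female. Both BPA libraries lay below both control libraries. The fragments were 129 against 48 in males, a ratio of BPA to control of 0.375 (95% counting interval 0.263 to 0.526), and 148 against 55 in females, a ratio of 0.370 (0.266 to 0.507). Of 5 lymphatic and sinusoidal endothelium genes, 4 were listed, with median log2 ratios of 0.15 in males and -0.07 in females. Prox1, a transcription factor of lymphatic endothelium that other cells also express, was at 1.12 and 1.95 FPKM in the control male and female and at 1.42 and 1.72 with BPA. Flt4 was at 0.5 and 0.68 FPKM against 0.99 and 0.78 (fragment ratio over both sexes 1.5, 1.02 to 2.23, with both BPA libraries above both controls). Pdpn, a membrane protein of lymphatic endothelium that other cells also express, was at 12.72 and 12.96 FPKM against 13.06 and 10.17 (fragment ratio in females 0.785, 0.635 to 0.967), and Stab2, a sinusoidal receptor, at 0.03 FPKM or below. The part of lymphatic endothelium in the Lyve1 level was not tested. In a bulk sample, fewer cells of a type and less RNA per cell cannot be told apart.

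Mrc1 (NCBI Gene 291327), the mannose receptor, was at 2.99 FPKM in the control male and 4.15 in the control female, and at 1.73 and 1.46 in the BPA male and female. The groups did not overlap. The fragment ratio was 0.578 (0.435 to 0.763) in males, from 143 and 82 fragments, and 0.352 (0.263 to 0.467) in females, from 192 and 68.

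Cd163 (NCBI Gene 312701), the receptor for haemoglobin bound to haptoglobin, was at 0.68 FPKM in the control male and 1.00 in the BPA male, and at 1.21 in the control female and 0.29 in the BPA female. The groups overlapped, and the sexes differed in direction. In males the ratio was 1.47 (0.871 to 2.52), an interval that holds 1, from 26 and 38 fragments. In females it was 0.243 (0.113 to 0.478), from 45 and 11.

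Among the secreted proteins and enzymes, F13a1 (NCBI Gene 60327), the A subunit of the cross-linking enzyme factor XIII, was at 1.43 and 1.38 FPKM in the control male and female and at 0.64 and 0.72 with BPA. The groups did not overlap, with ratios of 0.448 (0.250 to 0.774) in males and 0.521 (0.296 to 0.893) in females from 20 to 45 fragments. Lyz2 (NCBI Gene 25211), the lysozyme of myeloid cells, was at 3.53 and 2.57 FPKM in the controls and 1.86 and 2.11 with BPA. Its ratio was 0.530 (0.292 to 0.934) in males and 0.811 (0.440 to 1.48) in females, so the female difference was within counting error.

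Pf4 (NCBI Gene 360918), a chemokine of platelets that border macrophages also express, was at 2.5 and 2.15 FPKM in the control male and female and at 1.68 and 1.71 with BPA. Its transcript is short (318 bases) and these values stood on 4 to 6 fragments a library, which cannot show a difference. Platelet genes were nearly empty: 4 of 8 listed, with a summed level of 0.14 and 0.19 FPKM in the controls and 0.08 and 0.49 in the BPA libraries.

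The class II genes were close to the floor of the libraries. Cd74 (NCBI Gene 25599) was at 0.19 and 0.39 FPKM in the control male and female and at 0.09 and 0.1 with BPA, from 2, 4, 1 and 1 fragments, and the female ratio of 0.249 had an interval of 0.00505 to 2.51. RT1-Ba (NCBI Gene 309621) was at 0.5 FPKM (5 fragments) in the control male and 0.01, the lowest value in the files (0 fragments), in the BPA male, with a counting interval for the ratio that reached 1.10, and no fold is given. RT1-Da (NCBI Gene 294269) was at 0.09 and 0.19 FPKM in the control and BPA male, from 1 and 2 fragments, also with no fold. RT1 genes differ between rat strains and resemble each other, so reads may be split or lost among them; this was not tested.

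On the scale of log2(FPKM + 0.5), which understates the change of low genes, 1 of 9 members was past a 2-fold lower level in males (Lyve1, -1.20) and 3 of 7 were in females (Mrc1 -1.25, Lyve1 -1.24, Cd163 -1.11). Over all rows the share was 2.53% for males and 3.51% for females. Past 2-fold higher were 1.75% and 1.64% of rows and no member, and past 2-fold in either direction 4.28% and 5.15%. Between libraries of the same treatment, female against male, 3.1% of rows in controls and 3.14% in BPA libraries were past 2-fold. The log2 ratio was below 0 for 7 of 9 members in males (55.3% of all rows) and for 7 of 7 in females (57.7%). The median log2 ratio of the members was -0.65 in males and -0.62 in females, against -0.04 and -0.05 over all rows.

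**Figure D2:**
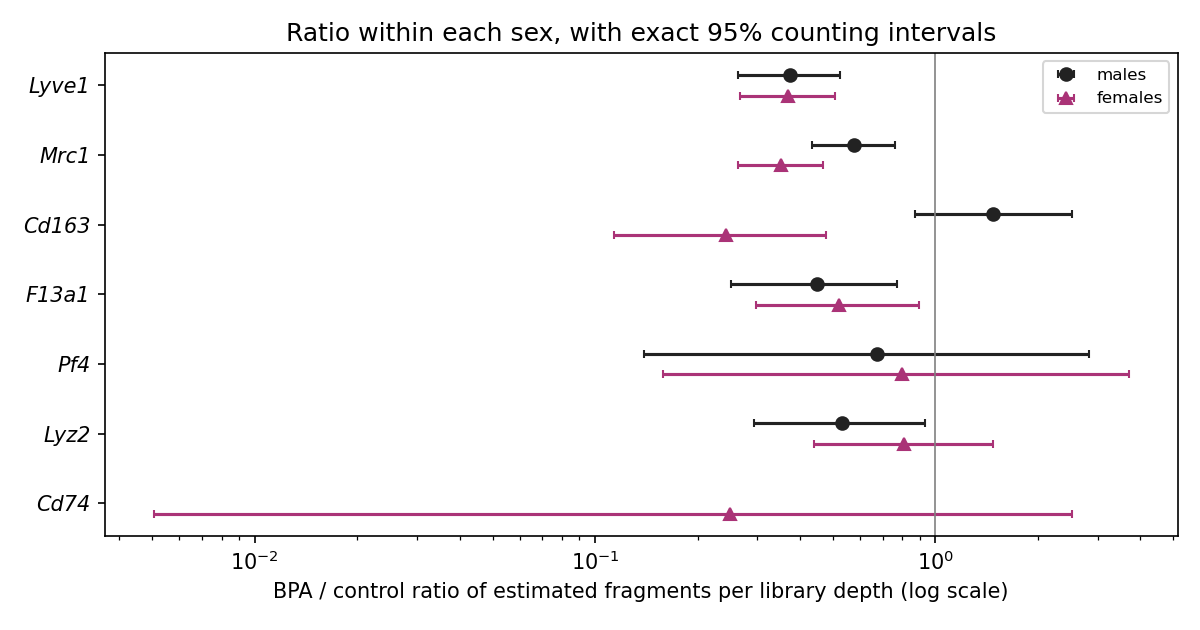
Ratio of estimated fragments, BPA to control (log axis), of the 7 members listed in all 4 libraries, in males and females (Cd74 in females alone, since both males held 3 fragments or fewer), with the 95% interval from counting error alone. Mrc1, Lyve1 and F13a1 lie below 1 with their intervals in both sexes, and Cd163 lies on opposite sides of 1.

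Both BPA libraries were below both controls in 6 of the 7 members listed in all 4 libraries, all but Cd163, beside 30.9% of 16182 rows. Among the 6, Pf4 (4 to 6 fragments a library) and Cd74 (1 to 4) stood on too few fragments for this order to be read. Both BPA libraries were above both controls in 0 of 7 members and 17.1% of rows. The exact permutation test of 2 libraries against 2 cannot go below p = 0.333. Summed over the 7 members, the level was 15.94 FPKM in the control male, 17.33 in the control female, 8.73 in the BPA male and 8.42 in the BPA female, from 389, 463, 213 and 183 fragments. The 2 control sums differed by less than the distance from either to the BPA sums. Lyve1 and Mrc1 made up the largest share of fragments.

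With the male and the female library taken as 2 samples of a treatment, limma on rows with a mean of at least 1 FPKM tested 5 members and called none of them at an adjusted p under 0.05, beside 0.562% of 13162 rows (0.456% lower with BPA). At an unadjusted p under 0.05 it called 2 of 5, both lower, beside 17.3% of rows (12% lower). Lyve1 had a log2 difference of -1.22 (SE 0.186, limma adjusted p = 0.0635) and ranked 117 of 13162 by p. Mrc1 had -0.95 (SE 0.232, limma adjusted p = 0.144). F13a1 had -0.69 (SE 0.306, adjusted p = 0.308 by limma), Lyz2 -0.50 (SE 0.225, adjusted p = 0.313 by limma) and Pf4 -0.36 (SE 0.220, adjusted p = 0.436 by limma). Cd163 and Cd74 were under the limit on level, and in limma without that limit had -0.38 (SE 0.394, adjusted p = 0.671) and -0.40 (SE 0.179, adjusted p = 0.365). With rows that carry an NCBI Gene ID alone, limma called Lyve1 (adjusted p = 0.00552) and Mrc1 (adjusted p = 0.0368) and no other member, that is 2 of 5, beside 4.49% of the 10632 rows tested there.

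The BPA to control ratio differed between the sexes beyond counting error for Mrc1 and Cd163. The female minus male difference of the log2 fragment ratios was -0.71 for Mrc1 (95% counting interval -1.27 to -0.15) and -2.60 for Cd163 (-3.79 to -1.40). It was -0.02 for Lyve1 (-0.67 to 0.63), 0.22 for F13a1 (-0.84 to 1.28) and 0.61 for Lyz2 (-0.51 to 1.74), whose intervals hold 0. Differences of the same sign with intervals below 0 were found in other lists, such as -0.43 for Dab2 (-0.72 to -0.13), -0.56 for Col1a2 (-0.73 to -0.39), -0.81 for Col3a1 (-0.98 to -0.64), -1.29 for Ptgds (-1.49 to -1.09) and -0.61 for Cldn5 (-0.82 to -0.40), so the value for Mrc1 was not particular to it. With 1 library for each sex and treatment, these intervals carry no spread between animals. The control libraries also differed between the sexes. Cd163 was 0.54 higher on the log2(FPKM + 0.5) scale in the control female than in the control male, and 0.93 lower (-0.93) in the BPA female than in the BPA male.

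**Figure D3:**
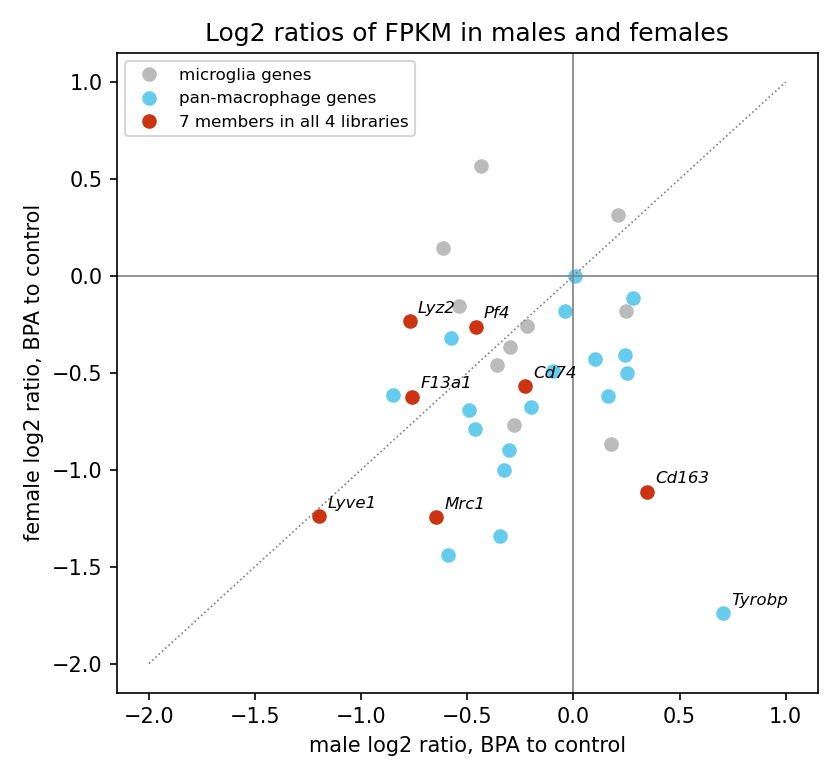
Log2 ratio of BPA to control, on log2(FPKM + 0.5), in females against males, for the 7 members listed in all 4 libraries, pan-macrophage genes and microglia genes, 1 point a gene, with a dotted line at equal values. Lyve1 lies near that line, Mrc1 below it, and Cd163 above 0 in males (0.35) and below 0 in females (-1.11).

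Other genes of border macrophages showed the same direction in part. Of 15 genes in the list, 11 were listed, 7 of them with both BPA libraries below both controls and none above, and limma called 2 of 6 tested. Colec12, a scavenger receptor that vessel-wall and fibroblast cells also express, was at 13.31 and 15.45 FPKM in the control male and female and fell to 5.35 and 4.14 with BPA (limma log2 difference -1.51, SE 0.151, adjusted p = 0.0274). Dab2, an endocytic adaptor also found in meningeal cells, was at 16.67 and 19.19 FPKM and fell to 8.99 and 7.69 (-1.06, SE 0.119, limma adjusted p = 0.0388). Neither call held with any 1 library left out (limma adjusted p from 0.0984 to 0.184 for Colec12 and from 0.104 to 0.217 for Dab2) or without the limit on level (0.145 and 0.149). Maf, a transcription factor that many cell types express, was at 11.56 and 14.47 FPKM in the controls and 11.45 and 12.68 with BPA, and Fcna, a ficolin, at 1.32 and 2.63 against 0.71 and 0.63. Folr2, a folate receptor that defines these cells, was at 0.38 and 0.19 FPKM in the controls and 0.01 and 0.39 with BPA, on 4 fragments or fewer, and was named after its values were seen.

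Many other genes of class II antigen presentation, its proteases and transcription factors, also serve other cells. Of 19, 15 were listed, and limma called none of the 10 tested (2 lower and 1 higher at an unadjusted p under 0.05); 8 of 13 were lower and 1 higher in both BPA libraries than in both controls. Ctsl, a lysosomal protease, was at 70.35 and 75.00 FPKM in the control male and female and 61.30 and 54.00 with BPA (adjusted p = 0.137 by limma). Rfxap, a subunit of the factor that binds the X box, was at 20.22 and 21.04 FPKM in the controls and 26.61 and 28.41 with BPA (adjusted p = 0.0845 by limma). Lgmn, an endopeptidase of lysosomes, was at 19.33 and 19.02 against 17.57 and 15.36 FPKM, and Ifi30, a thiol reductase that unfolds antigens, at 6.97 and 6.85 against 5.65 and 5.85. RT1-Db1, a class II beta chain, was at 0.18 and 0.09 against 0.01 and 0.01 FPKM, 2 fragments or fewer, and was named after its values were seen.

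Genes that all macrophages share, microglia included, were lower with BPA in part. Of 18, all listed, limma called none of 11 tested (3 lower at an unadjusted p under 0.05), with 11 of 18 lower in both BPA libraries than in both controls. The median log2 ratio on log2(FPKM + 0.5) was -0.15 in males and -0.62 in females. Csf1r, the growth factor receptor these cells depend on, was at 7.13 and 7.37 FPKM in the control male and female and 6.93 and 6.45 with BPA. Aif1, a calcium-binding protein that stains these cells, was at 9.14 and 8.03 against 7.30 and 4.08 FPKM, and the complement genes C1qa at 7.50 and 9.03 against 5.87 and 4.26 and C1qb at 5.83 and 6.75 against 7.18 and 6.20. The summed level was 57.35 FPKM in the control male and 53.73 in the BPA male, and 69.75 and 38.69 in the females.

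Microglia genes were listed in 10 of 11 and none of 6 tested was called by limma (2 lower at an unadjusted p under 0.05). Their median log2 ratio was -0.29 in males and -0.22 in females. Sall1, a transcription factor of microglia that cortical progenitors also use, was at 7.18 and 7.53 FPKM in the control male and female and 6.09 and 6.22 with BPA. P2ry12, a purine receptor of microglia, was at 2.58 and 3.13 against 2.98 and 1.49 FPKM. Beside these, the 9 members listed in males summed to 16.53 FPKM in the control and 8.92 with BPA, the 7 listed in females to 17.33 and 8.42, and the microglia genes to 38.69 and 40.85 against 32.31 and 31.04.

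**Figure D4:**
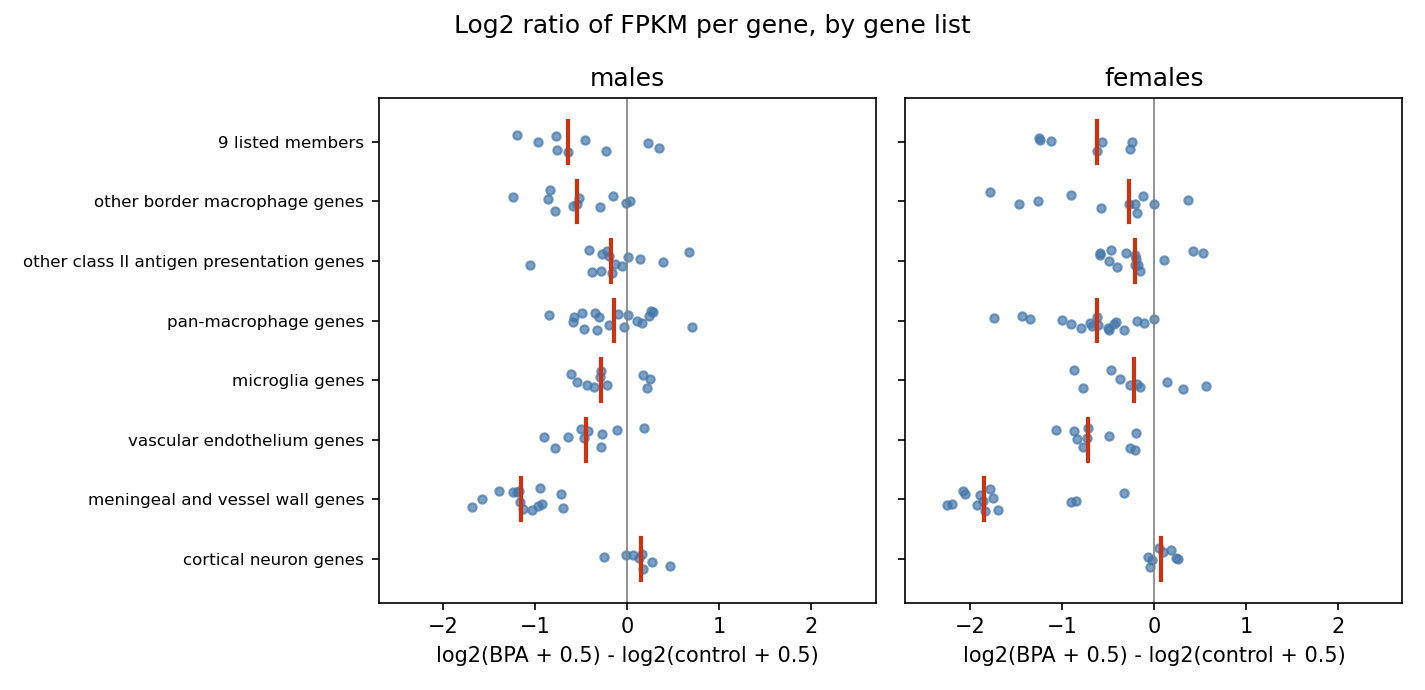
Log2 ratio of BPA to control on log2(FPKM + 0.5) for the genes of 8 lists, males left and females right, 1 point a gene and a bar at the median. The members (9 in males, 7 in females) have medians of -0.65 and -0.62, the meningeal and vessel wall genes -1.15 and -1.85, and the cortical neuron genes 0.15 and 0.08.

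Genes of the meninges and vessel wall, where border macrophages live, had median log2 ratios of -1.15 in males and -1.85 in females. All 14 were listed and were lower in both BPA libraries than in both controls, and limma called 8, all lower. Their summed level was 506.67 FPKM in the control male and 653.42 in the control female, and 227.97 and 157.90 in the BPA libraries, and none of the 14 was at 0.01 in any library. The fibroblast collagen Col1a2 was at 50.45 and 58.67 FPKM in the controls and fell to 21.71 and 17.15 (limma log2 difference -1.47, SE 0.129, adjusted p = 0.0255), and Col3a1 was at 40.16 and 54.98 and fell to 19.31 and 15.06 (limma adjusted p = 0.0430). The growth factor Igf2 was at 61.22 and 61.10 FPKM and fell to 18.69 and 14.13 (-1.88, SE 0.129, limma adjusted p = 0.0254). Ptgds, the prostaglandin D synthase of the leptomeninges, was at 214.04 and 320.00 FPKM against 109.08 and 66.86 (limma adjusted p = 0.0727). None of the 8 calls held with any 1 library left out (for Igf2, limma adjusted p from 0.0581 to 0.0728) or without the limit on level. Over all rows, limma called 74, but 0 without the BPA male or without the BPA female, 3 without the control male and 6 without the control female. The methods describe the meninges as taken off, and how much of them each library held, and its part in the members' differences, was not tested.

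Vessel endothelium genes were between these and the neurons. All 10 were listed, 8 of them lower in both BPA libraries than in both controls, and limma called none (6 lower at an unadjusted p under 0.05). Their medians were -0.45 in males and -0.72 in females. Cldn5, a tight junction protein, was at 60.49 and 70.46 FPKM in the control male and female and 55.80 and 42.57 with BPA, and Cdh5, the cadherin of endothelium, at 11.47 and 13.16 against 8.14 and 6.03. Slc2a1, the glucose transporter of the barrier, was at 14.86 and 17.24 against 16.88 and 14.98 FPKM. The 8 cortical neuron genes summed to 3361 and 3242 FPKM in the control male and female and 3733 and 3546 with BPA, and limma called none of them (3 higher at an unadjusted p under 0.05).

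Markers of white blood cells were few and those of red blood cells were abundant. Of 12 monocyte, neutrophil and dendritic cell genes 8 were listed, of 8 lymphocyte genes 2, and limma called neither of the 2 rows it tested, Zbtb46 and Lck (none at an unadjusted p under 0.05). Of the neutrophil proteins, S100a8 was at 0.01 FPKM in the control male, 2.19 in the BPA male and 0.37 in both females, from 0, 6, 1 and 1 fragments, and S100a9 at 0.99 and 0.51 in the control male and female and 0.5 and 0.01 with BPA, from 4 fragments or fewer. Plac8, a gene of myeloid cells, was at 0.97 and 1.67 against 0.65 and 0.33 FPKM, from 2 to 10 fragments. Of 7 blood genes 6 were listed, mostly globins, which summed to 965.51 and 890.45 FPKM in the control male and female and 904.43 and 731.74 with BPA. Hbb was at 473.14 and 448.15 against 450.29 and 364.59 FPKM (fragment ratio in males 0.952, 0.899 to 1.01), Hba-a2 at 399.13 and 367.11 against 405.93 and 314.83 (1.02, 0.954 to 1.08), and Hbb-b1 at 84.61 and 65.38 against 39.62 and 47.46 (0.468, 0.397 to 0.551). In males 3 of the 6 were higher with BPA and 3 lower, and in females all 6 were lower. The list had medians of -0.02 in males and -0.39 in females, and limma called none of 5 tested (1 lower at an unadjusted p under 0.05). The choroid plexus genes summed to 1.23 FPKM in the control and 1.28 in the BPA male, over 5 genes, and to 2.06 and 0.72 in the females, over 6. The part of these cells in the members' values was not tested.

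By the distance between patterns over the 4 libraries (Euclidean, log2(FPKM + 0.5) centred on each row's mean), the 5 rows most like Mrc1 among 10628 were Naaa (0.0935), Lox (0.104), Itgbl1 (0.114), Serping1 (0.128) and Lamc3 (0.133). Naaa, a lysosomal amidase, was at 1.34 and 1.77 FPKM in the control male and female and 0.68 and 0.5 with BPA. Lox, which cross-links collagen, was at 3.28 and 5.03 against 2.01 and 1.65. The rows most like Cd74 among 10629 were Eng (0.0350), Ttc14 (0.0505), Isyna1 (0.0506), Lamb2 (0.0567) and Acvr2b (0.0569), but the pattern of Cd74 rests on 1 to 4 fragments a library.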

How the data were processed

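Polyadenylated RNA was sequenced in 4 libraries, 1 for each sex and treatment. The authors mapped reads to the rat genome (Rnor_6.0, rn6 in the submitters' processing notes) and estimated expression; the notes name HISAT, Bowtie2 and RSEM, and versions are not given in the sources used here. The deposited values are FPKM, which the authors scaled to transcript length and library depth, with 2 decimals and 0.01 as the lowest value. Values were used as deposited, without re-normalization. The files hold no counts: fragments were estimated as FPKM times the length minus 60 bases times the depth that made scarce rows whole, and 93.96% to 94.7% of 853 to 888 such rows came within 0.1 of a whole number, where chance gives 20%. The recovery and the limma step were tested on simulated data.

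Log2 ratios used a pseudocount of 0.5. Rows were the unit, since no symbol repeats within a file. Ratios of fragments carry exact 95% conditional binomial intervals, which cover counting error and not the spread between animals. No ratio is given where both libraries held 3 fragments or fewer, or against 0. A comparison of 1 library against 1 describes those libraries, not the conditions. The sexes served as 2 samples of a treatment in limma 3.58.1 (R 4.3.3) on rows with a mean of at least 1 FPKM. It used Benjamini-Hochberg adjustment and had 2 residual degrees of freedom. Its p-values thus measure the spread between a male and a female library, which includes the difference between the sexes. The fit takes the libraries as independent, although the sexes of a treatment likely share litters. Python 3.11.15, pandas 2.3.3, numpy 2.4.6, scipy 1.17.1 and matplotlib 3.10.9 were used.

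The members and the gene lists were chosen with earlier results of these data known. The text names all members, up to 4 genes of the highest mean level in each other list, and the 5 rows most like Mrc1 and Cd74, and says where it names others. A gene of the microglia list that this rule names is not reported here. Promoters were read from RefSeq, where 9 of the 10 members matched, and GRCr8 coordinates were not joined to the mapped data. Alternatives were another pseudocount, another scaling, other limits on level, rows with an NCBI Gene ID alone, the sex as a block, and each library left out. A ratio of fragments was added after the data had been seen.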

Additional observations from a re-analysis of the deposited data

Results flagged for a closer look

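The ratio of BPA to control for Cd163, the haemoglobin scavenger receptor, had opposite signs in the sexes, 0.35 in males and -1.11 in females on log2(FPKM + 0.5). The female minus male difference was -1.46. The difference was not tested over replicates, since there was 1 library for each sex and treatment, and the libraries behind it held 26 and 38 fragments in males and 45 and 11 in females.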

How the results depend on the processing

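The number of transcripts past 2-fold, 718 in males and 867 in females, followed the scale: it was 1804 and 2121 with a pseudocount of 0.1, 397 and 504 with 1, 47 and 55 with 5, 201 and 329 over rows with an NCBI Gene ID alone, 404 and 529 at a mean of at least 1 FPKM, and 1310 and 1651 by ratios of fragments. Members past a 2-fold lower level, 1 in males and 3 in females, were 3 and 4 with a pseudocount of 0.1, 1 and 2 with 1, 0 and 0 with 5, and 2 and 4 by fragments, and in females 2 at a mean of at least 1 FPKM. With a pseudocount of 0.1 the male count includes RT1-Ba (5 and 0 fragments in control and BPA). The female counts with 0.1 and by fragments include Cd74 (4 and 1 fragments). Both genes are too scarce to show a difference. The log2 ratios of Mrc1 in females and Lyve1 in males and females shrank to -0.50, -0.52 and -0.58 with a pseudocount of 5.

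The 74 rows called by limma became 477 over rows with a Gene ID alone, 164 at a mean of at least 5 FPKM, where no member is tested, and 0 without a limit on level (2628 at an unadjusted p under 0.05). Leaving out 1 library gave 0 to 6: 3 without the control male, 0 without the BPA male, 6 without the control female and 0 without the BPA female. Of the 74, 60 were lower with BPA, but 1 of the 3 and 1 of the 6. With the sex as a replicate block, the calls were 86, and no member was called. The labels carry no replicate numbers. Members called by limma, 0, became 2 over rows with a Gene ID alone and stayed 0 with each library left out. Over 12 alternatives, the log2 difference ranged from -1.38 to -0.55 for Lyve1, with adjusted p from 0.00552 to 0.308, and from -1.15 to -0.37 for Mrc1, with adjusted p from 0.0368 to 0.454. Relative to scaling by the median of ratios, the log2 ratios as deposited were shifted by -0.045 in males and -0.062 in females. No log2 ratio of a member that passed 2-fold, and no limma log2 difference of a member, changed sign. The cause of these shifts was not tested. One library for each sex and treatment and 6 or fewer fragments a library for Pf4, Cd74, RT1-Da and RT1-Ba limit what can be seen.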

Other observations

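Among the genes that all macrophages share, 3 named after their values were seen had wide differences in females. Tyrobp, the signalling adaptor of Trem2, was at 2.0 FPKM in the control male and 3.58 in the BPA male, and at 8.05 in the control female and 2.06 in the BPA female, from 9, 16, 35 and 9 fragments. The female minus male difference of its log2 fragment ratios was -2.81 (95% counting interval -4.39 to -1.22). Cd68, a lysosomal protein of phagocytes, was at 2.23 and 2.40 FPKM in the control male and female and 1.31 and 0.57 with BPA (limma adjusted p = 0.215). Fcer1g, a chain of Fc receptors, was at 7.78 and 8.79 FPKM against 6.01 and 3.16 (limma adjusted p = 0.209).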
